A study of Mus musculus with 12 samples.

Results

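The SLC25 mitochondrial carriers were taken from the FPKM table (fragment counts scaled by exon length and library size) as the genes whose NCBI Gene identifier belongs to a protein-coding mouse gene with a symbol of Slc25a and a number. This gave 46 genes of the 18079 in the table, and 38 of the 46 were tested, since 3 or more mice had an FPKM of 1 or higher. RefSeq holds 47 such symbols, and Slc25a54 was not analysed here. The genes were divided by the substrate each carrier is known to move.

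Left ventricular muscle of 12 male C57BL/6 mice (C57BL/6J in the study's methods) was sequenced 4 weeks after surgery, at 12 weeks of age. The DMSO+Sham group had the operation without banding and received the solvent, and the Hispidulin+Sham group had the same operation with hispidulin, a plant flavonoid, at 20 mg/kg/day. The DMSO+AB group had aortic banding (AB), in which a ligature narrows the descending aorta and loads the heart with pressure, and the Hispidulin+AB group had AB with hispidulin at the same dose. Each group held 3 mice, and intraperitoneal injections began 1 day ahead of surgery, which was done at 8 weeks of age by the labels, while the study's methods allow for somewhat older mice. As whole tissue was measured, fewer cells of a type and less RNA per cell cannot be told apart.

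SLC25 proteins sit mostly in the inner mitochondrial membrane, which is closed to charged metabolites, and each one exchanges or imports particular substrates. In heart muscle they let ADP and phosphate in and ATP out, bring in fatty acids as acylcarnitines, and run the malate-aspartate shuttle that carries reducing power from the cytosol. Others supply amino acids, coenzyme A, nucleotides, iron and glutathione to the matrix, and a few have no settled substrate.

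Over all genes the FPKM of the libraries added up to 535235 to 567027. No read depth is known for them, and counting errors are therefore not given. Spearman correlations across all genes between mice of a group were 0.968 to 0.986. The 8 cardiomyocyte markers summed to 44251 to 62769 FPKM. Myl7, an atrial myosin light chain, was at 333 FPKM in 1 Hispidulin+Sham mouse against 0.24 to 67.5 in the DMSO+AB mice and 5.33 to 15.03 in the DMSO+Sham mice. That mouse, the third of its group, also had the highest red blood cell marker sum, 10251 FPKM against 2237 to 5028 in the other mice. The third DMSO+Sham mouse had the lowest cardiomyocyte marker sum, 44251 FPKM against 52630 to 62769 in the other mice, and the highest macrophage marker sum, 280 FPKM against 119 to 237.

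Carriers of the ATP cycle made up most of the family's RNA. The 46 genes summed to 7680 to 9439 FPKM per mouse, which was 1.36% to 1.73% of all FPKM. Slc25a4, the heart and skeletal muscle form of the ADP/ATP carrier, held 62.0% to 67.7% of the family sum and ranked 8th of all genes by mean FPKM. Slc25a3, which imports phosphate for ATP synthesis, held 16.6% to 19.7% and ranked 40th. Slc25a11, the 2-oxoglutarate/malate carrier of the malate-aspartate shuttle, held 4.08% to 5.75%, and Slc25a5, the widely expressed ADP/ATP carrier, 2.47% to 3.83%. The other 42 genes together held 7.57% to 9.49%. These levels compare genes per length within the same libraries and do not measure protein.

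**Figure D1:**
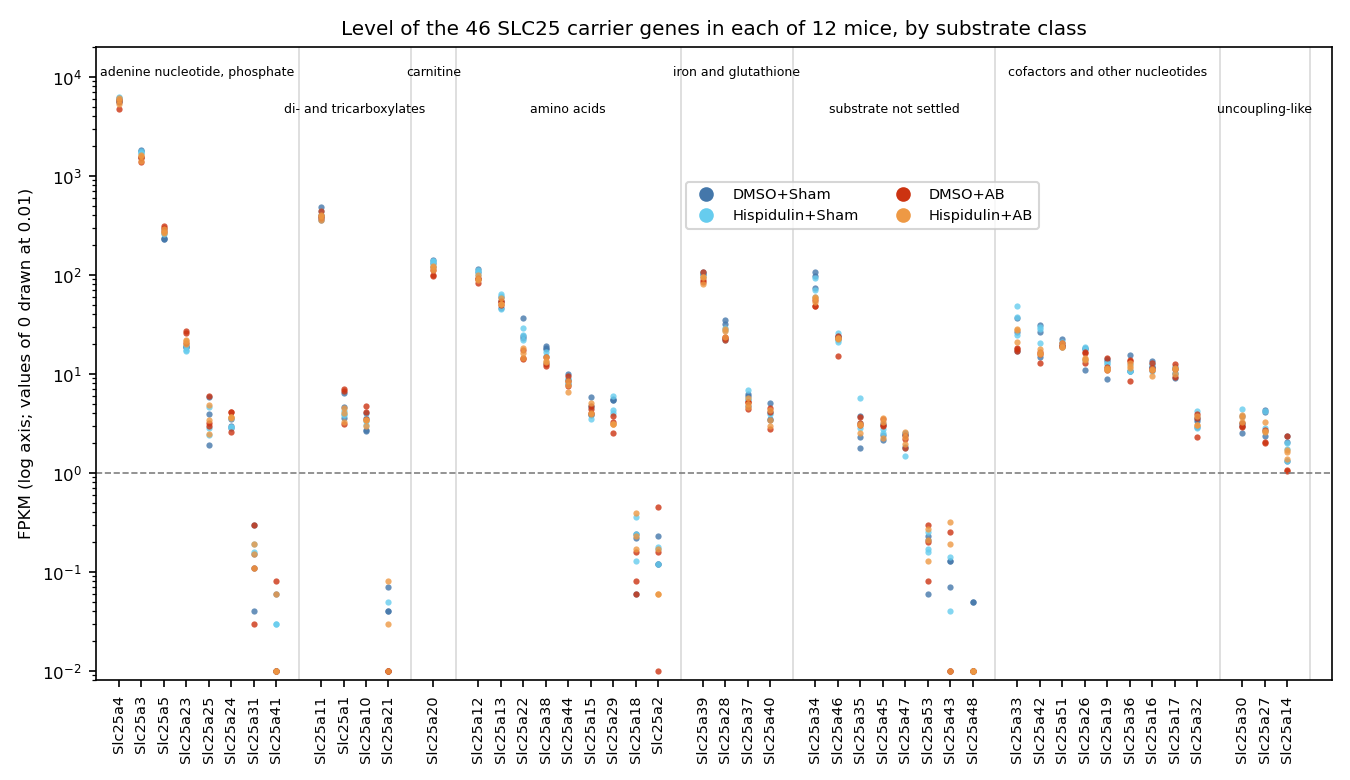
FPKM on a log axis of the 46 SLC25 genes, grouped by substrate, with 1 point per mouse and 4 colours for the groups. The dashed line is at an FPKM of 1, and values of 0 are drawn at 0.01. Slc25a4 lies between 4762 and 6255 FPKM, and the 8 genes that were not tested lie under 1.

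The genes that led the other classes differed widely in level. Slc25a20, the carnitine/acylcarnitine carrier, averaged 121 FPKM over the 12 mice. Slc25a12, the aspartate/glutamate carrier of the malate-aspartate shuttle in muscle, averaged 97.9 FPKM, and Slc25a39, a glutathione carrier, 97.2 FPKM. Slc25a34, whose substrate is not settled, averaged 68.8 FPKM, and Slc25a33, a pyrimidine nucleotide carrier, 26.7 FPKM. The highest of the uncoupling protein-like genes, Slc25a30, averaged 3.31 FPKM. Neighbours in this order whose ranges over the mice overlapped, such as Slc25a12 and Slc25a39, are not separated by their spread.

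None of the 8 untested genes exceeded 0.45 FPKM in any mouse. They were Slc25a31, the testis form of the ADP/ATP carrier, Slc25a41, Slc25a18, Slc25a2, Slc25a21, Slc25a43, Slc25a48 and Slc25a53. No comparison was made of them.

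For AB against sham under DMSO, which asks what pressure overload did to the family, 5 of the 38 tested carriers passed an adjusted p of 0.05, 4 lower and 1 higher after AB. Among all 11664 genes tested 5.21% passed, 2.71% lower and 2.50% higher. The carriers that fell were Slc25a22, Slc25a29 and Slc25a38, which carry amino acids, and Slc25a34, while Slc25a5 rose. Over the 38 carriers 28 had a difference below 0 and 10 above, while 55.8% of all genes lay below 0. The median of the carriers was -0.05 on the log2(FPKM + 1) scale against -0.03 over all genes. That median ran from -0.126 to -0.0367 when 1 mouse was left out, lowest without the third DMSO+Sham mouse, where the median over all genes was -0.011, and highest without the third DMSO+AB mouse, where it was -0.0094. Over the 26 carriers left by a minimum FPKM of 5 the median was -0.14 against -0.021 over all genes. At an unadjusted p under 0.05 there were 12 carriers, or 3 higher and 9 lower, against 20.4% of all genes. The 3 mice of one group did not overlap those of the other in 7 carriers, 2 higher and 5 lower, against 17.9% of all genes. The last share is near the background and is not a result about the carriers.

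Amino acid carriers held 3 of the 4 falls. All 7 tested carriers of the class had a difference below 0, where 55.8% of all genes did, with a median of -0.22, and 3 passed. Slc25a13, Slc25a15 and Slc25a44, which did not pass, turned above 0 in 5, 4 and 2 alternatives. Slc25a22, which imports glutamate into the matrix, was at 36.4, 24.4 and 23.1 FPKM in the DMSO+Sham mice and at 14.3, 14.2 and 17.3 FPKM in the DMSO+AB mice. Every AB mouse lay under every sham mouse, and the mean was 45.3% lower, with a log2 fold change of -0.81 ± 0.17 (SE, n = 3 and 3, adjusted p = 0.0228 by limma). In the hispidulin groups it was at 29.1, 24.9 and 21.9 FPKM after sham and 14.6, 18.2 and 16.3 FPKM after AB.

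Slc25a29, a carrier of basic amino acids, was at 5.43, 5.61 and 5.48 FPKM in the DMSO+Sham mice and at 2.55, 3.27 and 3.79 FPKM after AB. The groups did not overlap, and the log2 fold change was -0.64 ± 0.14 (SE, n = 3 and 3, adjusted p = 0.0270). Slc25a38, which imports glycine for heme synthesis, was at 19.0, 17.6 and 18.2 FPKM after sham and at 12.1, 12.5 and 14.7 FPKM after AB, with a log2 fold change of -0.45 ± 0.11 (SE, n = 3 and 3, adjusted p = 0.0411). Its mean was 28.3% lower and its groups did not overlap. Slc25a12, which exports aspartate in exchange for glutamate, was at 115, 107 and 90.5 FPKM after sham and at 93.1, 82.3 and 90.6 FPKM after AB. These groups overlapped and the adjusted p was 0.250.

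Of the 6 tested adenine nucleotide and phosphate carriers 1 passed, and 4 had differences above 0 and 2 below. Slc25a5 was at 231, 234 and 232 FPKM in the DMSO+Sham mice and at 278, 313 and 294 FPKM after AB. All AB mice lay above all sham mice, the mean was 27.0% higher, and the log2 fold change was 0.34 ± 0.08 (SE, n = 3 and 3, adjusted p = 0.0335). Of the 50-base windows of the Slc25a5 transcript, 46.6% are also found in transcripts of other genes in GENCODE, among them Gm5560, Gm5529 and Gm5256, so its reads could be shared with them and its values are uncertain. Slc25a4 was at 6075, 5834 and 5634 FPKM after sham and 5839, 5544 and 4762 FPKM after AB, which overlap, with an adjusted p of 0.505. Slc25a3 was at 1809, 1797 and 1533 FPKM after sham and 1538, 1373 and 1503 FPKM after AB, which overlap too, with a log2 fold change of -0.22 ± 0.09 (SE) and an adjusted p of 0.209.

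The ratio of the ADP/ATP carrier forms is a level comparison within each mouse. Per 100 FPKM of Slc25a4, Slc25a5 stood at 3.81, 4.00 and 4.12 in the DMSO+Sham mice, at 4.20, 4.66 and 5.003 in the Hispidulin+Sham mice, at 4.76, 5.65 and 6.18 in the DMSO+AB mice and at 4.42, 4.94 and 4.92 in the Hispidulin+AB mice. The DMSO+AB mice all lay above the DMSO+Sham mice, and the Hispidulin+AB mice overlapped with both the Hispidulin+Sham and the DMSO+AB mice. The shared windows of Slc25a5 bear on this ratio as well.

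**Figure D2:**
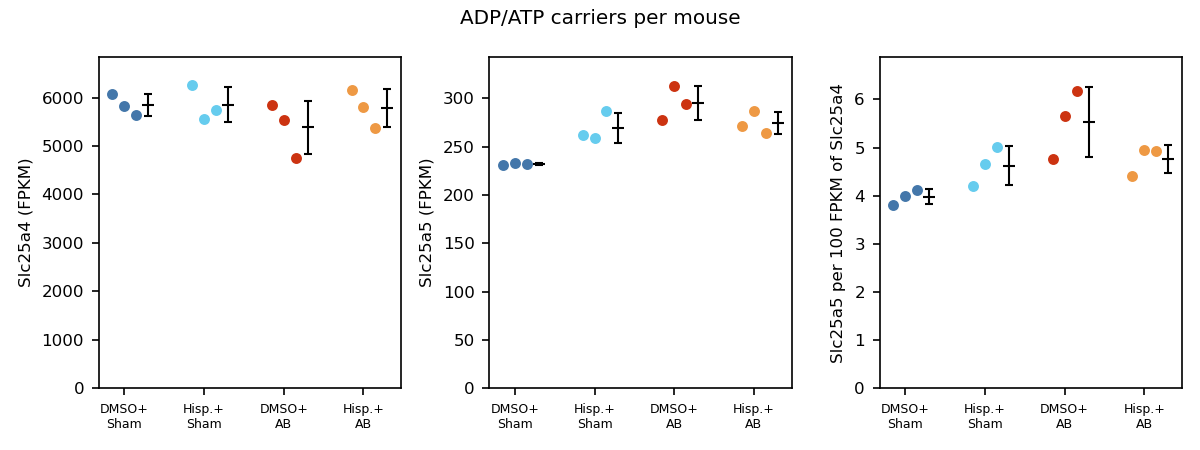
FPKM of Slc25a4 and of Slc25a5, and Slc25a5 per 100 FPKM of Slc25a4, in each of 12 mice by group. Points are mice, and the bars beside them are the mean and SD of 3 mice. Slc25a4 overlaps between the groups, while Slc25a5 is at 231 to 234 FPKM in DMSO+Sham and at 278 to 313 FPKM in DMSO+AB.

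Slc25a23, an ATP-magnesium/phosphate carrier, was at 19.0, 18.7 and 18.5 FPKM after sham and 20.6, 26.0 and 27.3 FPKM after AB. Its groups did not overlap, and its adjusted p was 0.0776. Slc25a34 was at 97.7, 73.0 and 108 FPKM in the DMSO+Sham mice and at 48.4, 48.0 and 55.7 FPKM after AB. The groups did not overlap, the mean was 45.4% lower, and the log2 fold change was -0.84 ± 0.17 (SE, n = 3 and 3, adjusted p = 0.0196). Slc25a34 had the smallest p of the 38 carriers in DMSO+AB against DMSO+Sham, and no substrate is settled for it. Slc25a20 was at 141, 119 and 132 FPKM after sham and at 111, 96.3 and 100 FPKM after AB, with a log2 fold change of -0.34 ± 0.09 (SE, adjusted p = 0.0514), so its groups did not overlap and the test was missed.

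The remaining classes had no member that passed under DMSO. Of the 9 cofactor and nucleotide carriers 7 lay below 0, and 7 of the 9 changed sign under at least 1 alternative. Slc25a42, the coenzyme A carrier, was at 31.0, 26.4 and 14.8 FPKM after sham and at 16.0, 12.9 and 16.6 FPKM after AB, with an adjusted p of 0.173, and the third sham mouse lay among the AB mice. Slc25a33 was at 36.9, 26.4 and 16.9 FPKM after sham and at 18.2, 17.2 and 17.7 FPKM after AB, with the same mouse lowest and an adjusted p of 0.313. The 4 iron and glutathione carriers had differences below 0, with a median of -0.16, and Slc25a37 and Slc25a40 turned above 0 in 1 and 3 alternatives. Among them Slc25a39 was at 107, 101 and 102 FPKM after sham and 85.2, 88.4 and 107 FPKM after AB, and its groups overlapped. The 3 uncoupling protein-like genes had a median of -0.25. Among them Slc25a30 was at 2.50 to 3.73 FPKM after sham and 2.93 to 3.18 FPKM after AB, a difference of -0.0013 that turned above 0 in 7 of 21 alternatives, and the other 2 stayed below 0 in all those run.

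Of the di- and tricarboxylate carriers 2 lay above 0 and 1 below. Slc25a11 was at 405, 480 and 362 FPKM after sham and 396, 374 and 441 FPKM after AB, a log2 difference of -0.04 with overlapping groups. Slc25a1, the citrate exporter, was at 4.59, 3.58 and 6.37 FPKM after sham and 3.11, 7.01 and 6.77 FPKM after AB, so the AB mice spread to both sides of the sham mice. Slc25a10, which exchanges dicarboxylates for phosphate, was at 2.62, 4.05 and 2.74 FPKM after sham and 3.49, 4.11 and 4.78 FPKM after AB, with an adjusted p of 0.242. The exact permutation test gives 0.1 for each carrier that passed, which is the smallest p it allows with 3 mice against 3.

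**Figure D3:**
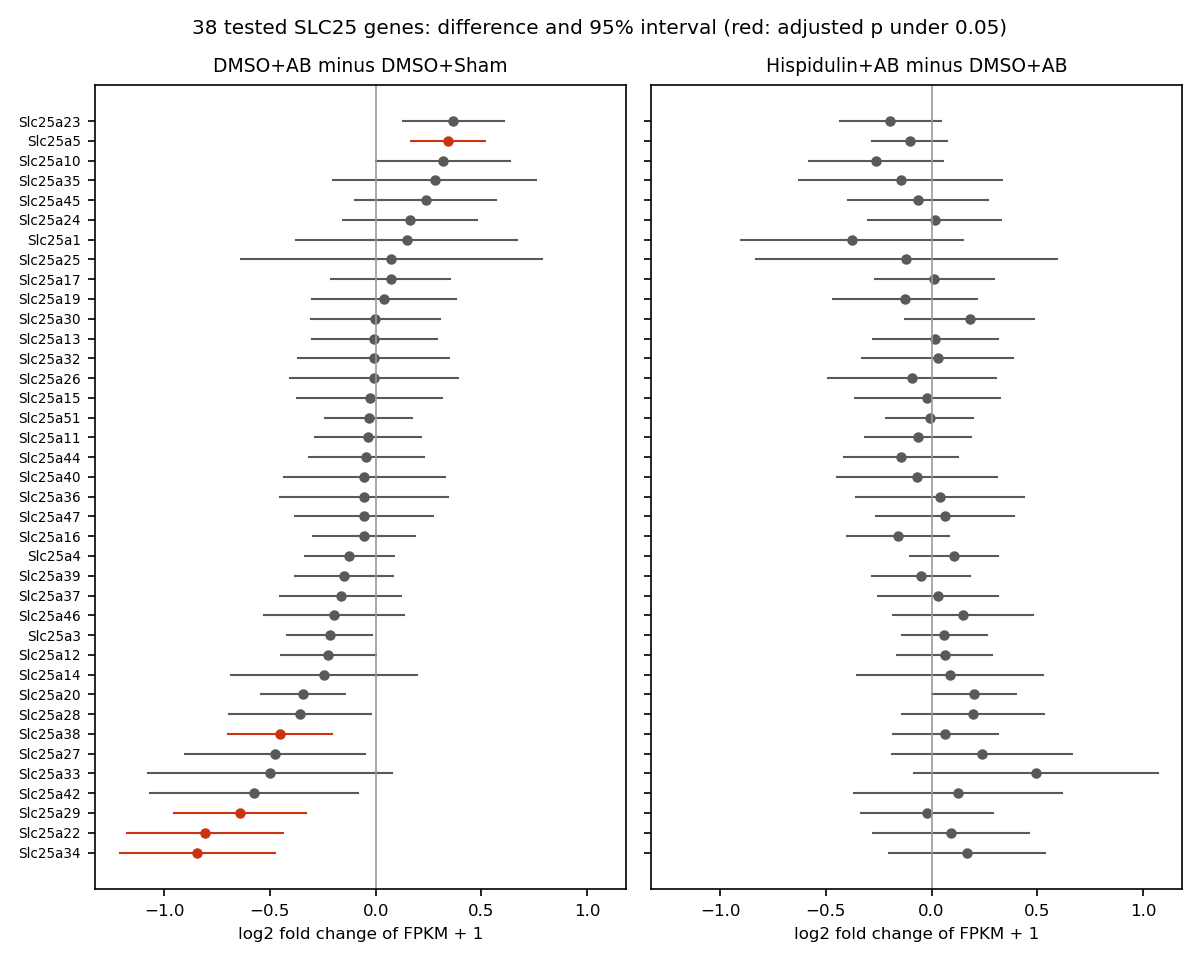
Difference of log2(FPKM + 1) for the 38 tested SLC25 genes with the 95% interval of limma, for DMSO+AB against DMSO+Sham on the left and Hispidulin+AB against DMSO+AB on the right. Red marks an adjusted p under 0.05, which 5 genes have on the left and 0 on the right.

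The number of carriers that passed depended on single mice. It was 0 in limma without the first DMSO+Sham mouse and 0 without the second DMSO+AB mouse, with 7 and 9 carriers at an unadjusted p under 0.05, and it was 9 without the second DMSO+Sham mouse. The share of all genes that passed moved too, to 0.780%, 0.832% and 9.03%. Without the first DMSO+Sham and the second DMSO+AB mouse, 16.2% and 17.1% of all genes had an unadjusted p under 0.05. The number of carriers that passed was 3 without the third DMSO+Sham mouse, the first Hispidulin+Sham mouse or any 1 of the Hispidulin+AB mice. Of all genes 4.24%, 3.39% and 3.12% to 3.64% passed in these fits. The library labels hold numbers in the 5000s and 6000s, which were read as animal numbers. The label of the first DMSO+Sham mouse has a number in neither range. That each range is a series of animals was inferred from these labels and is not stated in them. With this inferred series as a covariate the first DMSO+Sham mouse had a level of its own. This takes it out of the differences between groups. In this fit 0 carriers passed, and 9 were under 0.05 before adjustment. The share of all genes that passed fell too, to 1.22%, and 19.0% were under 0.05 before adjustment. The series and the loss of that mouse cannot be told apart in these counts. With only the libraries compared in the model 0 carriers passed, and 7 were under 0.05 before adjustment. Of all genes 0.0943% passed in that model, and 12.4% were under 0.05 before adjustment. Within the series, which hold 1 mouse against 1 and 2 against 1, the direction of the 5 carriers could not turn, since their groups did not overlap. The values within series are therefore given as sizes only. The differences were -0.47 and -0.66 for Slc25a22, -0.46 and -0.73 for Slc25a29, -0.38 and -1.14 for Slc25a34, -0.25 and -0.53 for Slc25a38, and 0.33 and 0.34 for Slc25a5. Over 22 alternatives the adjusted p of Slc25a22 ran from 0.00350 to 0.155 and that of Slc25a34 from 0.00555 to 0.116. Slc25a22 and Slc25a34 passed in 18 of them, Slc25a29 in 16, Slc25a5 in 10 and Slc25a38 in 8.

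Averaged over both treatments, AB against sham let 6 of the 38 carriers pass, 5 lower and 1 higher, which is 15.8% against 7.39% of all genes, 3.87% lower and 3.52% higher. Slc25a22, Slc25a29, Slc25a34, Slc25a20 and Slc25a42 fell, and Slc25a23 rose. The log2 fold changes were -0.70 ± 0.12 (SE) for Slc25a22, -0.56 ± 0.10 for Slc25a29, -0.60 ± 0.12 for Slc25a34, -0.27 ± 0.06 for Slc25a20, -0.59 ± 0.16 for Slc25a42 and 0.30 ± 0.08 for Slc25a23, with adjusted p of 0.00701, 0.00929, 0.0127, 0.0296, 0.0445 and 0.0341. Slc25a38 and Slc25a5 did not pass here, with adjusted p of 0.0561 and 0.0720. Slc25a22, Slc25a29 and Slc25a34 passed in all 21 alternatives, Slc25a20 and Slc25a23 in 12 and Slc25a42 in 7. The count was 3 without the first DMSO+Sham, the first or the second Hispidulin+Sham, the second DMSO+AB or any 1 of the Hispidulin+AB mice. In these fits the share of all genes that passed fell as well, to between 3.22% and 4.90%. Without the third Hispidulin+Sham mouse, which had the atrial and red blood cell markers, the count was 7, against 5.26% of all genes.

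**Figure D4:**
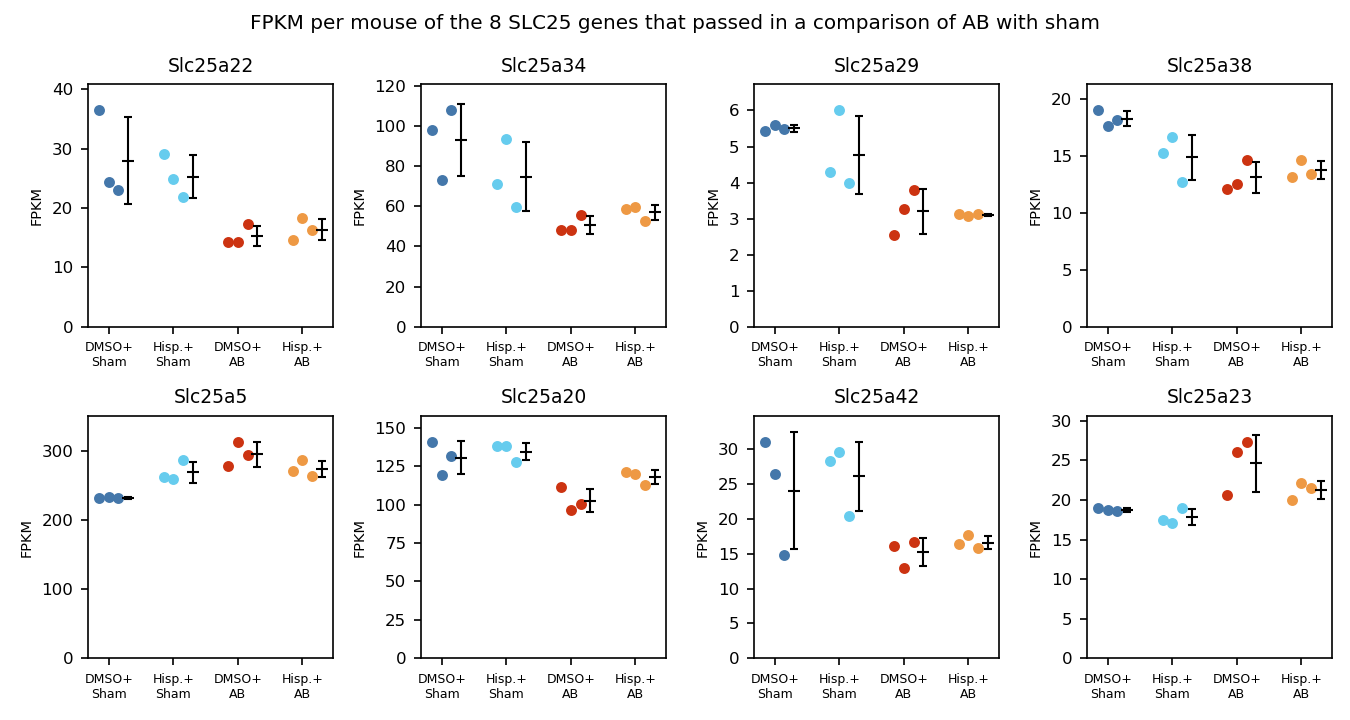
FPKM in each of 12 mice of the 8 SLC25 genes that passed in AB against sham under DMSO or averaged over both treatments. Points are mice, and the bars beside them are the mean and SD of 3 mice. In Slc25a22 all 6 AB mice lie under all 6 sham mice.

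Hispidulin+AB against DMSO+AB, which asks whether the drug altered the family under pressure overload, let 0 carriers pass, as 0% of all genes passed in limma. The DMSO+AB mice also enter the comparison with sham, so the values are set side by side only. At an unadjusted p under 0.05 there was 1 carrier, Slc25a20, at 121, 120 and 113 FPKM with hispidulin and 111, 96.3 and 100 FPKM without, a difference of 0.20 ± 0.09 (SE, n = 3 and 3, adjusted p = 0.996) with a 95% interval of 0.0034 to 0.40. Of all genes 3.10% had an unadjusted p under 0.05 here. The count of carriers was 4 without the first DMSO+AB mouse, where the share of all genes was 11.1%, and 2 without the second DMSO+Sham mouse. It was 0 without the second or the third DMSO+AB mouse, the first or second Hispidulin+AB mouse, or any 1 of the Hispidulin+Sham mice. Slc25a33 was at 28.3, 27.6 and 20.8 FPKM with hispidulin and 18.2, 17.2 and 17.7 FPKM without, a difference of 0.49 with a 95% interval of -0.08 to 1.07 and an adjusted p of 0.996. Of its 50-base windows 12.6% are found in transcripts of Gm13068. The 3 mice of each group did not overlap in 4 carriers, against 7.88% of all genes. These were Slc25a20, Slc25a33 and Slc25a30, which were higher with hispidulin, and Slc25a10, which was at 3.40, 3.41 and 2.96 FPKM with hispidulin and 3.49, 4.11 and 4.78 FPKM without. Slc25a30 was at 3.81, 3.66 and 3.26 FPKM with hispidulin and 3.18, 2.99 and 2.93 FPKM without.

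For each of the 5 carriers that had passed in DMSO+AB against DMSO+Sham, the difference with hispidulin after AB had a 95% interval that spans 0. It was 0.09 with an interval of -0.28 to 0.46 for Slc25a22, 0.17 with -0.20 to 0.53 for Slc25a34, -0.02 with -0.33 to 0.29 for Slc25a29, 0.07 with -0.18 to 0.31 for Slc25a38, and -0.10 with -0.28 to 0.07 for Slc25a5. These intervals do not show that the drug leaves these genes alone. Slc25a23 was at 20.0, 22.2 and 21.5 FPKM with hispidulin, a difference of -0.20 with an interval of -0.43 to 0.04. Slc25a1 was at 3.30, 3.98 and 4.47 FPKM, and the DMSO+AB mice lay on both sides of these values. Slc25a4 was at 6153, 5810 and 5371 FPKM and Slc25a3 at 1578, 1609 and 1415 FPKM with hispidulin, and both overlapped with DMSO+AB. Over the 38 carriers 21 lay above 0 and 17 below, with a median of 0.02 against 0.0047 over all genes. The median of the carriers ran from -0.025 to 0.038 when 1 mouse was left out and was -0.013 with library weights, so its sign was not stable. By class, the 3 uncoupling protein-like genes lay above 0, the 3 di- and tricarboxylate carriers below, and 4 of 7 amino acid carriers above. Of these, 1, 1 and 3 changed sign under at least 1 alternative.

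In the sham mice hispidulin against DMSO gave 0 carriers with an adjusted p under 0.05 (0% of all genes) and 2 with an unadjusted one, against 2.46% of all genes. The latter count was 5 without the second DMSO+Sham mouse (9.40% of all genes) and 4 without the second Hispidulin+Sham mouse (1.95%). It was 1 without the first DMSO+Sham (5.10%) or the third Hispidulin+Sham mouse (1.49%). Slc25a5 was at 262, 259 and 287 FPKM with hispidulin against 231, 234 and 232 FPKM, a difference of 0.21 ± 0.08 (SE), and Slc25a38 was at 15.2, 16.6 and 12.7 FPKM against 19.0, 17.6 and 18.2 FPKM, a difference of -0.29 ± 0.11 (SE), and the adjusted p was 1.00 for both. Without the third Hispidulin+Sham mouse the differences were 0.16 ± 0.09 and -0.19 ± 0.11 (SE). Hispidulin+AB against Hispidulin+Sham also gave 0 carriers, with 0% of all genes, and 3 lower and 1 higher at an unadjusted p under 0.05, against 7.26% of all genes. These 4 became 2 without the third Hispidulin+AB or the second Hispidulin+Sham mouse, where the share of all genes fell to 3.91% and 4.02%. The smallest adjusted p of these carriers was 0.479, for Slc25a22, at a difference of -0.59 ± 0.17 (SE). The interaction of hispidulin and AB let 0 pass with 0% of all genes, and hispidulin against DMSO averaged over both surgeries also let 0 pass with 0% of all genes, with 2 and 1 carriers at an unadjusted p under 0.05, against 2.48% and 2.98% of all genes. The interaction count was 6 without the second DMSO+Sham mouse (8.31% of all genes) and 1 without any 1 of 8 other mice, the exceptions being the second and the third Hispidulin+Sham mouse (3 and 2) and the third DMSO+AB mouse (2). The averaged count was 4 without the first DMSO+AB mouse (7.82% of all genes), 2 without the first DMSO+Sham mouse, and 0 without the first or second Hispidulin+AB or the third Hispidulin+Sham mouse.

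Genes that work beside the carriers were read from lists chosen with results of these data known. Under DMSO, Mtch1, an SLC25-related outer membrane protein, was at 72.4 to 87.6 FPKM after sham and 89.6 to 135 FPKM after AB and rose by 0.58 ± 0.15 (SE, adjusted p = 0.0438), while Ucp3, Ucp2 and Mtch2 did not pass and Ucp1 was listed at 0 in every sham mouse and every DMSO+AB mouse. Of 12 enzymes partnering with the carriers 0 rose and 1 fell, Cpt2, the inner membrane carnitine palmitoyltransferase, by 0.50 on the log2 scale (adjusted p = 0.0355). Of 13 genes of the carrier import machinery 0 passed, with 11 above 0. Of 20 other mitochondrial membrane transporters, such as the voltage-dependent anion channels and the pyruvate carrier, 0 passed, and of 10 regulators of mitochondrial genes 0 passed, with 9 below 0. Of 80 tested nuclear subunits of the respiratory chain and ATP synthase 0 rose and 4 fell, with 65 below 0 and a median of -0.14. Over all genes 5.21% passed, 2.71% lower, and 55.8% lay below 0, which stand beside these counts with no test of the list. In Hispidulin+AB against DMSO+AB, which shares the DMSO+AB mice, 0 genes passed in any of these lists, with 0% of all genes. Of the 80 subunits 67 lay above 0 there and 13 below, with a median of 0.09, while 48.6% of all genes lay below 0. Of the 12 enzymes 10 lay above 0, of the 13 import genes 2, of the 20 transporters 10 and of the 10 regulators 7. In AB against sham averaged over both treatments, where 7.39% of all genes passed, 3.87% lower, 3 of the 12 enzymes fell, Cpt2, Crat and Got1, and 7 of the 80 subunits fell. Of the 20 transporters Sfxn3 rose by 0.39 ± 0.10 (SE, adjusted p = 0.0307) and Sfxn4 fell by 0.45 ± 0.10 (SE, adjusted p = 0.0229), while 0 of the import genes and 0 of the regulators passed and Mtch1 rose (adjusted p = 0.0491).

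Cell type markers moved with AB in the same mice. Of the 6 fibroblast markers 3 rose under DMSO and their sum was 331 to 400 FPKM after sham and 369 to 875 FPKM after AB. Of the 8 cardiomyocyte markers 2 fell, with a median of -0.27 and sums of 44251 to 62769 FPKM after sham and 52630 to 56611 FPKM after AB. The atrial marker sum, mostly Nppa, a stress-responsive peptide of ventricular muscle as well, was 90.3 to 309 FPKM after sham and 683 to 6215 FPKM after AB, and 1 of its 4 genes rose. The first DMSO+AB mouse stood apart from the other 2, with an atrial sum of 683 FPKM against 6215 and 5743 FPKM and a fibroblast sum of 369 FPKM against 875 and 583 FPKM. Its sums lay near the lowest of the Hispidulin+AB mice, which were at 680 to 1052 FPKM and 372 to 577 FPKM. Without this mouse 6 carriers passed in DMSO+AB against DMSO+Sham, against 8.18% of all genes. Of the 5 endothelial, 5 macrophage, 4 smooth muscle, 5 red blood cell and 2 tested adipocyte markers 0 passed under DMSO. The part of these markers in the carrier results was not tested.

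Promoters of the 5 carriers that passed under DMSO are shown as the 250 bases ahead of the start in RefSeq (build GRCm38.p6), because these are the members that passed. Windows were found for 35 of the 46 genes. Slc25a22 has 3 starts listed and its first is shown, and each other gene has 1. Capitals mark the GC box, GGGCGG or its reverse complement CCGCCC, which both strands were searched for.
Slc25a22 chr7:141437875-141438124, minus strand: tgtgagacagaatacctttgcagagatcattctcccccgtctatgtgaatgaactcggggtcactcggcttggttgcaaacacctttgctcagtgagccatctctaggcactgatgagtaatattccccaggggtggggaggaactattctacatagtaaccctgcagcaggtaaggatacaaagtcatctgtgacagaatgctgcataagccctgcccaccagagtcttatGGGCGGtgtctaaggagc
Slc25a29 chr12:108835877-108836126, minus strand: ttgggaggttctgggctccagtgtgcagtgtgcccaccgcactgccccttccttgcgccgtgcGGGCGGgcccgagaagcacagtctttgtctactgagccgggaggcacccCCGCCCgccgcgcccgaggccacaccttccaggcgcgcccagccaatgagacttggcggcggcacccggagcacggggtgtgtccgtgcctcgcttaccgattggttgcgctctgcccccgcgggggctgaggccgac
Slc25a38 chr9:120110132-120110381, plus strand: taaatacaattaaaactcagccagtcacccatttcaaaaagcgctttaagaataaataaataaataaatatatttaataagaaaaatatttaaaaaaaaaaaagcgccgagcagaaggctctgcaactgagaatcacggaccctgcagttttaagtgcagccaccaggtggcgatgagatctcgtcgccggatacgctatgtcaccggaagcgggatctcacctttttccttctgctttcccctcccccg
Slc25a34 chr4:141623835-141624084, minus strand: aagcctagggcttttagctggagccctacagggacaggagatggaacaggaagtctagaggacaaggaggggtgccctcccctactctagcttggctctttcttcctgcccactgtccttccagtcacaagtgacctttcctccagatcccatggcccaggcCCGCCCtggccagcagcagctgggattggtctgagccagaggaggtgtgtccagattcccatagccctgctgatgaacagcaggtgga
Slc25a5 chrX:36795347-36795596, plus strand: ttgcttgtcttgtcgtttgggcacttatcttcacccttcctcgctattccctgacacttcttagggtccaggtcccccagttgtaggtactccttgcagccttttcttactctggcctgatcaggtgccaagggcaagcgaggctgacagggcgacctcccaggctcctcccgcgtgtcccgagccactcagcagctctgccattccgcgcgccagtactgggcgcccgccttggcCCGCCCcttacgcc
The window of Slc25a29 held 2 GC boxes, those of Slc25a22, Slc25a34 and Slc25a5 held 1 each, and that of Slc25a38 held none. A GC box was in 21 of 29 tested carriers with a window (72.4%), against 32.9% of 27025 promoters of the same length. The estrogen-related receptor element TNAAGGTCA was in 0 of the 29 against 1.14%, the GABP element CCGGAAGT in 1 against 2.93%, the E-box CACGTG in 5 against 6.05% and the TATA box TATAAA in 0 against 13.0%. The 29 carriers had passed the filter on FPKM, while the 27025 promoters were not limited to genes that did, so these shares come from unlike sets. Of all 35 carriers with a window, 24 held a GC box, 6 the E-box, 1 the TATA box, 1 the GABP element and 0 the estrogen-related receptor element. These matches of letters are a description of the windows and say nothing of binding.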

How the data were processed

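The authors sequenced polyadenylated RNA of left ventricular muscle as single-end 50-base reads (BGISEQ-500) and deposited FPKM per gene and mouse, rounded to 0.01. The submitters' processing notes name HISAT2 2.0.4, Bowtie2 2.2.5, RSEM 1.2.12 and DESeq2 1.4.5. The genome build and annotation are not given in the sources used here. Read counts were not analysed here. Steps between low values gave no read depth: 26.5% of their ratios came within 0.1 of whole numbers, where an even spread gives 20%.

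Symbols came from RefSeq for 17947 of the 18079 genes (99.3%). Tests covered the 11664 genes for which 3 or more of the 12 libraries had an FPKM of 1 or higher. limma 3.58.1 in R 4.3.3 was fitted to log2(FPKM + 1) with 1 mean per group in 1 model of all libraries (8 error degrees of freedom), eBayes with trend, two-sided, with Benjamini-Hochberg adjustment over all genes tested. Fold changes on this scale understate the change of low genes. The script was tested on simulated data. Carriers were named with values per mouse where they passed in any comparison, led their class, were among the 5 of highest mean FPKM, or were among the 5 of smallest p in DMSO+AB against DMSO+Sham or Hispidulin+AB against DMSO+AB. The members and lists were chosen with earlier results of these data known. Shared windows were read from GENCODE transcripts with Python 3.11.15. Promoter windows were limited to the 250 bases ahead of the start after longer windows had been searched.

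Replicate numbers belong to different animals. Residual correlations of same-numbered libraries were all over 0.1 in Hispidulin+Sham against DMSO+Sham (0.126, 0.330 and 0.232) and in Hispidulin+AB against Hispidulin+Sham (0.147, 0.197 and 0.228), and were -0.024, -0.044 and -0.198 in DMSO+AB against DMSO+Sham and 0.300, 0.176 and -0.183 in Hispidulin+AB against DMSO+AB. Alternatives were 0.1 added in place of 1, scaling by median of ratios or quantile normalization, the low-value filter dropped or raised to 5 FPKM, eBayes without trend, weighted libraries, a covariate for the series of the animal number, a model of only the compared libraries, the replicate block, and leaving out each replicate.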

Additional observations from a re-analysis of the deposited data

How the results depend on the processing

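In DMSO+AB against DMSO+Sham 5 carriers passed. The count was 3 without a filter on low values (2.13% of all genes) and 9 with library weights. It was 0 with the animal number series in the model (1.22% of all genes), where the first DMSO+Sham mouse has its own level and does not enter the differences. With the compared libraries alone it was 0 as well (0.0943% of all genes). Leaving out 1 mouse gave 0 (the first DMSO+Sham or the second DMSO+AB mouse, 0.780% and 0.832% of all genes) to 9 (the second DMSO+Sham mouse, 9.03%). With the replicate block 4 passed, without Slc25a38 (adjusted p = 0.0621), and in the other comparisons the block left the counts as they were (0, and 6 averaged over both treatments). The cause of these moves was not tested. The median over the carriers was -0.14 with an FPKM of at least 5 (-0.021 over all genes), and -0.126 to -0.0367 when 1 mouse was left out. It was -0.027 with quantile normalization (-0.020 over all genes) and -0.031 with median-of-ratios scaling (-0.013 over all genes). Averaged over both treatments 6 passed, 12 with library weights, 3 with the series covariate, and 3 to 9 when 1 mouse was left out. Of all genes 4.69% passed with the series covariate and 3.22% to 10.5% with 1 mouse left out. In Hispidulin+AB against Hispidulin+Sham 3 passed with library weights. The median over the carriers in this comparison was -0.087 with the main settings (-0.020 over all genes). It was -0.14 with an FPKM of at least 5, against -0.018 over all genes, and -0.13 to -0.056 when 1 mouse was left out. Library weights raised the share of all genes that passed as well, to 12.2% in DMSO+AB against DMSO+Sham, 21.7% averaged over both treatments and 1.79% in Hispidulin+AB against Hispidulin+Sham. With library weights the carriers at an unadjusted p under 0.05 rose in number from 1 to 3 in Hispidulin+AB against DMSO+AB, from 2 to 4 in Hispidulin+Sham against DMSO+Sham, from 4 to 9 in Hispidulin+AB against Hispidulin+Sham, from 2 to 7 in the interaction and from 1 to 2 for hispidulin averaged over both surgeries, where 6.396%, 7.71%, 19.8%, 8.68% and 5.26% of all genes did.

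Single carriers near 0 changed sign. In DMSO+AB against DMSO+Sham Slc25a30 was at 0.00218 with 0.1 added, 0.019 with median-of-ratios scaling, 0.033 with quantile normalization and 0.022 with library weights, and at -0.10 to 0.11 with 1 mouse left out, where Slc25a1 was at -0.0214 to 0.460 and Slc25a11 at -0.130 to 0.0728. In Hispidulin+AB against DMSO+AB Slc25a3 was at -0.0018 with quantile normalization and Slc25a39 at 0.013 with library weights, and with 1 mouse left out Slc25a11 was at -0.12 to 0.00043, Slc25a29 at -0.139 to 0.0769 and Slc25a39 at -0.114 to 0.0511. Depth is unknown, so counting error limits the low genes by an amount that cannot be given.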
